A study of Rattus norvegicus with 4 samples.

Results

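Integrins, the laminins and nidogens of the basement membrane, and the soluble adhesive ligands osteopontin (Spp1), fibronectin (Fn1) and vitronectin (Vtn) were followed in the pre-implantation uterus (day 5 of pregnancy) of Sprague Dawley rats. Genes were chosen by symbol: integrin alpha and beta subunits, laminin alpha, beta and gamma chains, Nid1, Nid2, Spp1, Fn1 and Vtn. This gave 37 genes among the 18166 genes tested; Itgae, Itgav, Itgb3 and Lamb1 were not analysed here. Adult rats 10 to 12 weeks old received ormeloxifene by mouth at 1.25 mg per kg on day 1, with gum acacia as the carrier, and control rats received vehicle only; no other agent is named for either group. Ormeloxifene, taken by women as a contraceptive, acts through oestrogen receptors and blocks or mimics oestrogen depending on the tissue. Each group had 2 Affymetrix arrays of total uterine RNA, labelled as biological replicates 1 and 2. How many rats contributed to each array is not stated in the labels.

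An integrin is a receptor made of 1 alpha and 1 beta subunit that spans the cell membrane and ties the matrix outside to the actin skeleton inside. Which matrix molecule it holds depends mainly on the pair: some alpha subunits recognise the short RGD peptide of fibronectin, vitronectin and osteopontin, others recognise collagen or laminin, and a leukocyte group recognises ligands on other cells. Laminins are trimers of an alpha, a beta and a gamma chain that form the sheet under epithelia and around muscle cells, and nidogens link that sheet to collagen IV. In the uterus before implantation, integrins of the luminal epithelium and their ligand osteopontin are studied as points of attachment for the blastocyst.

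Values are log2 signals after quantile normalization, and every difference is ormeloxifene minus vehicle on the log2 scale with its standard error from limma. Values in sentences on single genes are given in the order replicate 1, replicate 2. A signal on an array cannot tell fewer cells of a type from less RNA per cell, and signals of different genes are not set against each other, since probes differ in brightness. The whole series has 4 arrays, so the precision of each value is low: the median width of the 95% interval over these 37 genes was 1.02. The smallest p that an exact permutation test of 1 gene can give in this design is 0.333. Arrays with the same replicate number were more alike across the groups (r = 0.980 and 0.983 over genes, which are not independent replicates) than the arrays of a group (0.973 with ormeloxifene and 0.963 with vehicle). They also shared 488 and 551 exactly equal deposited values, against 0 in the other 4 pairs of arrays. Differences are therefore also given within replicate number 1 and within number 2.

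No member of the set passed the adjusted threshold of 0.05 by limma with Benjamini-Hochberg adjustment; the same held for all genes tested, of which 0 passed (0%). The smallest adjusted p among the 37 was 1.00. At an unadjusted p under 0.05 there was 1 member, the laminin gamma chain Lamc3, against 399 or 2.20% of all genes tested. With the replicate number as a block, there were 2 members at an unadjusted p under 0.05, Lamc3 and Spp1, against 1228 or 6.76% of all genes, and 0 of the 37 passed the adjusted threshold, the smallest adjusted p being 0.522. Of the 37, 25 lay higher with ormeloxifene and 12 lower, at a median of 0.06 against 0.02 over all genes. Over all genes, 9702 lay higher and 8464 lower. The balance of the 37 depended on single arrays. Without ormeloxifene replicate 1, 19 lay higher and 18 lower, at a median of 0.013. Without vehicle replicate 1, 20 lay higher and 17 lower, at 0.018. Without ormeloxifene replicate 2, 24 lay higher and 13 lower, and without vehicle replicate 2, 22 and 15, at a median of 0.11 each. The arrays of the groups did not overlap in 12 members, 7 above and 5 below, against 25.7% of all genes and 32.4% of these. An absolute difference of 1 or more was seen in 0 members, and one of 0.5 or more in Lamc3 and Spp1. For 34 of the 37 the 95% interval lay wholly between -1 and 1; the exceptions were Lamc3, Spp1 and Itga10. The plot of each array's deviation from the gene mean shows how far the arrays of a group lay apart in each gene.

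**Figure D1:**
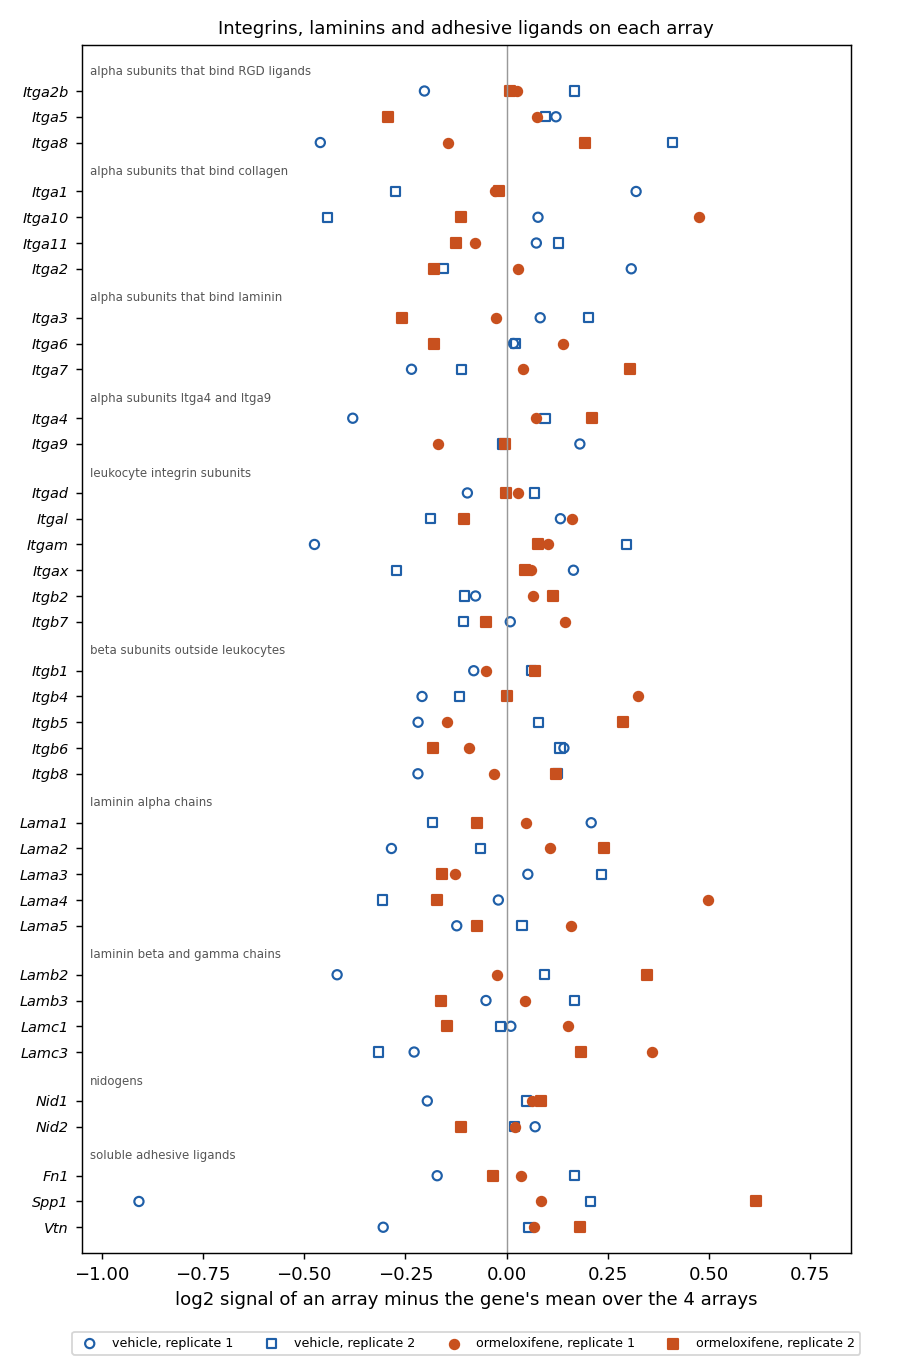
Log2 signal of each array minus the mean of that gene over the 4 arrays (x axis), for the 37 genes (y axis, grouped by role). Open blue marks are vehicle and filled orange marks ormeloxifene, circles replicate 1 and squares replicate 2. Lamc3, Lama2 and Itga7 have both orange marks to the right of both blue marks, whereas in most genes the colours are mixed; the single mark farthest from its mean is vehicle replicate 1 of Spp1.

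Lamc3 and Spp1 are the members of smallest unadjusted p, so their RefSeq promoters are shown, from 250 bases before to 50 after the gene start, on the GRCr8 build. Capitals mark every match, on either strand, to GGTCA (the half-site of the oestrogen response element), TGANTCA (the AP-1 site), GGGCGG (the GC box, CCGCCC on the other strand) and TATAAA (the TATA box). The Lamc3 sequence is chr3:35562739-35563038 on the plus strand and the Spp1 sequence is chr14:5619755-5620054 on the minus strand.
Lamc3: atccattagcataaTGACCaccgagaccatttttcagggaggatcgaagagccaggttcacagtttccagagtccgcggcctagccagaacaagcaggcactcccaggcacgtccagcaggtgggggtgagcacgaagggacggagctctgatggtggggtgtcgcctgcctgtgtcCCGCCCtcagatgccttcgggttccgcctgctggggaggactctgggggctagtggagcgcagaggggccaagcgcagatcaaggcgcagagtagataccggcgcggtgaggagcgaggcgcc
Spp1: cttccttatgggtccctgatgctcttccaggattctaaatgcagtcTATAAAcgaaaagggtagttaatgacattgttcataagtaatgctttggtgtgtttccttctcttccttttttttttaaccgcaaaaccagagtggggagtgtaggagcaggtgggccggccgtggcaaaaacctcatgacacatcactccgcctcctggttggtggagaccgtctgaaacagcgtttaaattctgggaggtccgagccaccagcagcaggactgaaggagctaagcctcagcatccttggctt
The Lamc3 window held 1 half-site, on the minus strand from base 15 to 19, and 1 GC box, and the Spp1 window held 1 TATA box match, from base 47 to 52 and so well upstream of the start. Of the 37 genes, 28 had a promoter in the RefSeq table. The full oestrogen response element, which is the half-site followed after 3 bases by its reverse complement, was found in 0 of the 28 and in 0.0255% of 27457 promoters of the same length. The half-site was found in 6 of the 28 (Itga10, Itga2b, Itgax, Lama4, Lamc3 and Vtn), or 21.4%, against 40.2% of all. The GC box was found in 15 of 28, or 53.6%, against 34.9% of all, the AP-1 site in 2 (Itgax and Lama3) against 7.33%, and the TATA box in 3 (Itgb7, Lama4 and Spp1) against 14.3%. These matches describe the letters of the windows; no binding was measured.

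Among the soluble ligands, osteopontin had the largest difference of all 37 genes, yet its arrays overlapped. Osteopontin is a secreted phosphoprotein that carries an RGD motif and binds several integrins. Spp1 (probe set 17692849) read 5.97 and 7.08 with vehicle and 6.96 and 7.49 with ormeloxifene. Vehicle replicate 1 stood well below the other 3 arrays, and vehicle replicate 2 lay above ormeloxifene replicate 1. The mean was 6.52 ± 0.79 with vehicle and 7.22 ± 0.38 with ormeloxifene (SD, n = 2 each), a difference of 0.70 ± 0.38 or 1.63-fold, with a 95% interval from -0.18 to 1.58 and an unadjusted p of 0.102 by limma. Within number 1 the difference was 0.99 and within number 2 it was 0.41. Vehicle replicate 1 decided much of the value: the difference was 0.14 without it and 1.26 without vehicle replicate 2. With the replicate number as a block the unadjusted p was 0.00655 and the adjusted p 0.522 by limma. That fit leaves 1 residual degree of freedom, and its standard error of 0.19 for Spp1 leans mostly on the other genes.

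Fibronectin, the matrix protein through which fibroblasts and smooth muscle cells attach, showed a difference near 0 between group means. Fn1 (probe set 17865301) read 10.31 and 10.65 with vehicle and 10.52 and 10.45 with ormeloxifene, so that both ormeloxifene arrays lay between the vehicle arrays. Its difference was 0.00 ± 0.22 with an interval from -0.51 to 0.52, made of 0.21 within number 1 and -0.20 within number 2. Vitronectin (Vtn), an adhesive protein of plasma and matrix, read 6.98 and 7.34 with vehicle and 7.35 and 7.47 with ormeloxifene (probe set 17648942). Both ormeloxifene arrays were above both vehicle arrays, the lower of them by a narrow margin, and the difference was 0.25 ± 0.22 (-0.27 to 0.77). Without vehicle replicate 1 it was 0.069, and without vehicle replicate 2 it was 0.43.

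Of the laminin chains measured, 6 of 9 lay higher with ormeloxifene and 3 lower, and Lamc3 was the member of the whole set with the smallest unadjusted p. Lamc3 (probe set 17761289) encodes a gamma chain that can replace the common gamma chain Lamc1 in the trimer. It read 8.28 and 8.20 with vehicle and 8.87 and 8.70 with ormeloxifene. The groups lay apart by more than the arrays within them. Its mean was 8.24 ± 0.06 with vehicle and 8.78 ± 0.12 with ormeloxifene (SD, n = 2 each), a difference of 0.54 ± 0.21 or 1.46-fold, with an interval from 0.06 to 1.03 and an unadjusted p of 0.0319 by limma (adjusted p = 1.00). Within number 1 and number 2 the differences were 0.59 and 0.50, and leaving out any 1 array gave values from 0.46 to 0.63. With the block the unadjusted p was 0.0105 and the adjusted p 0.579 by limma. The unadjusted call was lost on the values as deposited (unadjusted p of 0.111 by limma), with arrays centred on their medians (0.0709), with all probe sets tested (0.0570) and with any 1 array left out (0.0586 to 0.180). Lamc1 itself (probe set 17685264) read 9.33 and 9.30 with vehicle and 9.47 and 9.17 with ormeloxifene, a difference of 0.00 ± 0.22.

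The laminin alpha chains went in different directions. Lama2, the alpha chain of the basement membrane of muscle, read 9.41 and 9.63 with vehicle and 9.80 and 9.93 with ormeloxifene (probe set 17610868). The groups did not overlap, and the difference was 0.35 ± 0.21 (-0.15 to 0.84; unadjusted p = 0.141 by limma). Lama3, the alpha chain of epithelial laminin in which hemidesmosomes anchor, lay the other way, at 6.60 and 6.78 with vehicle and 6.42 and 6.39 with ormeloxifene (probe set 17721550). Its groups did not overlap either, with a difference of -0.29 ± 0.21 (-0.77 to 0.19). Lama4, a chain of vessel and muscle laminin, had a difference of 0.33 ± 0.27 that rested on ormeloxifene replicate 1, at 9.32 against 8.65 in ormeloxifene replicate 2 and 8.80 and 8.51 with vehicle; without that array it was -0.01. Lama4 was the only member with more than 1 probe set, and its dimmer probe set differed by 0.10. Lama5, the main alpha chain under adult epithelia, read 7.03 and 7.19 with vehicle and 7.31 and 7.08 with ormeloxifene (probe set 17779899), overlapping groups with a difference of 0.08 ± 0.21 (-0.41 to 0.58). Lama1, typical of embryonic basement membranes, differed by -0.03 ± 0.23.

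Of the laminin beta chains, Lamb2, found in muscle and vessel laminins, read 8.57 and 9.09 with vehicle and 8.97 and 9.34 with ormeloxifene (probe set 17713375). Both replicate 2 arrays were above the replicate 1 array of their group, so the groups overlapped although the difference was positive within each number (0.40 and 0.25). The difference was 0.32 ± 0.26 with an interval from -0.28 to 0.93, and ran from 0.068 without vehicle replicate 1 to 0.58 without vehicle replicate 2. Lamb3, which pairs with Lama3 in epithelial laminin, differed by -0.12 ± 0.22, from 0.10 within number 1 to -0.33 within number 2. Of the nidogens, Nid1 differed by 0.15 ± 0.21 and Nid2 by -0.09 ± 0.20. The plot of differences with their intervals shows Lamc3 as the member whose interval excludes 0.

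**Figure D2:**
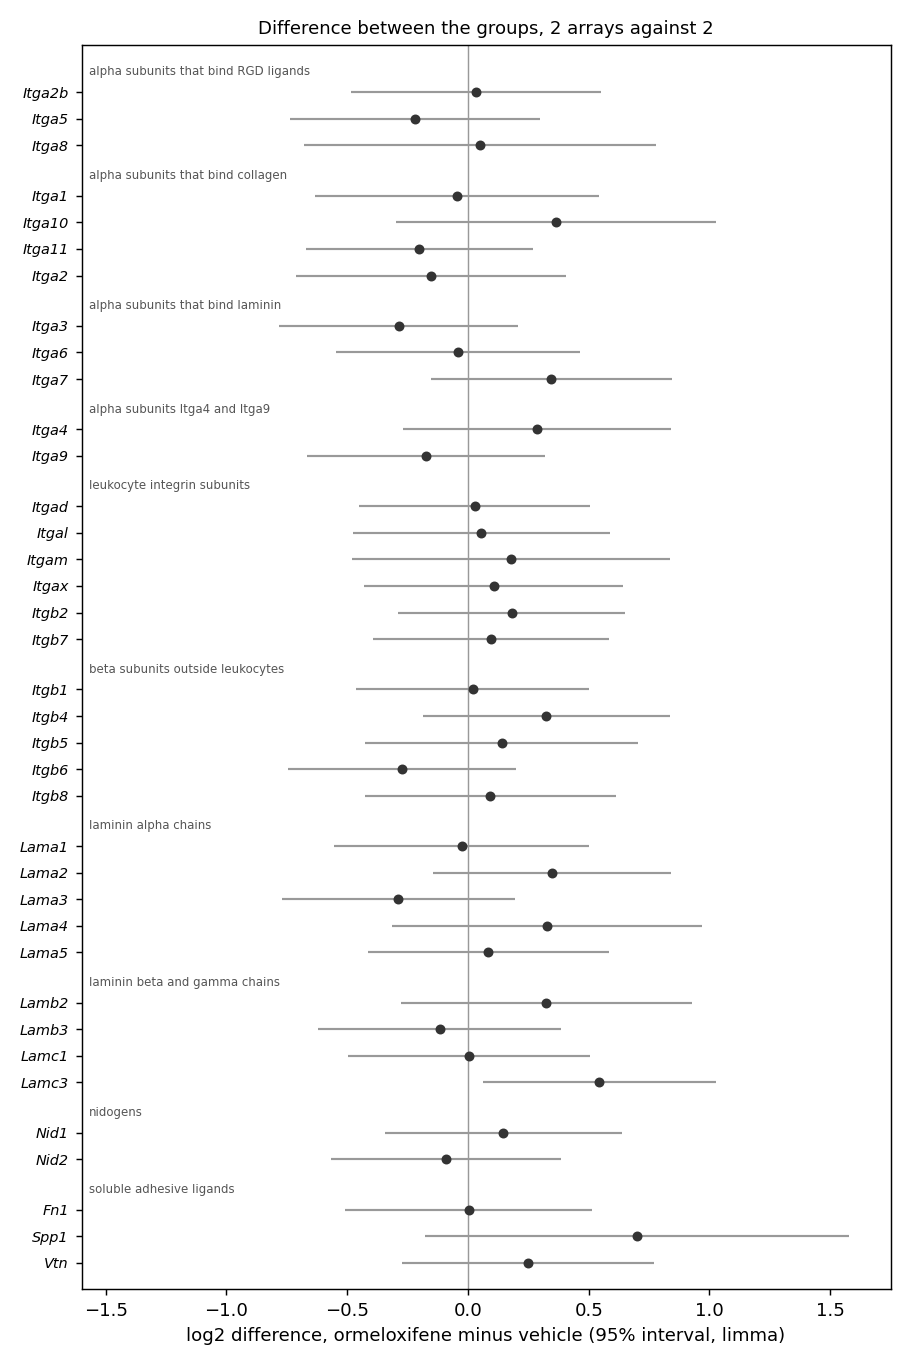
Difference between ormeloxifene and vehicle on the log2 scale (x axis; points, limma estimates from 2 arrays against 2; bars, 95% intervals) for the 37 genes (y axis, grouped by role). Estimates run from -0.29 for Lama3 to 0.70 for Spp1, and the interval of Lamc3, from 0.06 to 1.03, is the one that does not cover 0.

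Among the integrin subunits, 15 of 23 lay higher and 8 lower, at a median of 0.05, with 0 at an unadjusted p under 0.05 by limma with or without the block. The common beta subunit Itgb1, which pairs with most alpha subunits, read 9.80 and 9.94 with vehicle and 9.83 and 9.95 with ormeloxifene (probe set 17734569). Its arrays differed by replicate number far more than by group, and the difference was 0.02 ± 0.21 with an interval from -0.46 to 0.50. Its sign was negative on the values as deposited and with arrays centred on their medians, and it also turned with an array left out, as did that of Fn1 in each case.

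Of the alpha subunits that bind RGD ligands, Itga5, the fibronectin receptor subunit, read 8.23 and 8.21 with vehicle and 8.19 and 7.82 with ormeloxifene (probe set 17841647). The groups did not overlap, but ormeloxifene replicate 1 was close to the vehicle arrays, and the difference of -0.22 ± 0.22 (-0.74 to 0.30) was -0.04 without ormeloxifene replicate 2. Itga8, which binds nephronectin and fibronectin, differed by 0.05 ± 0.31, with vehicle arrays as far apart as 5.04 and 5.91. Itga2b, the platelet subunit, differed by 0.03 ± 0.22. The beta subunits that pair with Itgav varied in direction. Itgb5 differed by 0.14 ± 0.24 and Itgb8 by 0.09 ± 0.22, in overlapping groups. Itgb6, an epithelial subunit that activates latent TGF-beta, read 5.60 and 5.59 with vehicle and 5.37 and 5.28 with ormeloxifene (probe set 17772594). Its groups did not overlap and the arrays of each lay close together, at a difference of -0.27 ± 0.20 (-0.75 to 0.20; unadjusted p = 0.215 by limma). In limma the standard error of a gene is drawn towards that of the other genes, so the close agreement of these arrays carries little weight.

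Of the alpha subunits that bind collagen, 3 of 4 lay lower. Itga1, a collagen receptor subunit of smooth muscle and stroma, read 9.39 and 8.80 with vehicle and 9.04 and 9.05 with ormeloxifene (probe set 17745373), with both ormeloxifene arrays between the vehicle arrays. The difference was -0.05 ± 0.25 (-0.63 to 0.54). Itga10, which binds collagen in cartilage, read 5.79 and 5.27 with vehicle and 6.19 and 5.60 with ormeloxifene (probe set 17741039); replicate 2 was the lower array in both groups. Its difference was 0.36 ± 0.28 (-0.30 to 1.03), with 0.40 and 0.33 within the numbers, but 0.071 without ormeloxifene replicate 1 and 0.66 without ormeloxifene replicate 2. Itga11, of fibroblasts, differed by -0.20 ± 0.20 without overlap, and Itga2, of epithelium and platelets, by -0.15 ± 0.24.

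Laminin-binding subunits were mixed. Itga7, the laminin receptor subunit of muscle, read 5.67 and 5.79 with vehicle and 5.94 and 6.21 with ormeloxifene (probe set 17825808), groups that did not overlap, at a difference of 0.35 ± 0.21 (-0.15 to 0.85; unadjusted p = 0.148 by limma). Itga3, an epithelial laminin receptor subunit, read 7.36 and 7.48 with vehicle and 7.25 and 7.02 with ormeloxifene (probe set 17660303), also without overlap, at -0.29 ± 0.21 (-0.78 to 0.21). Itga6, which pairs with Itgb1 or with the hemidesmosome subunit Itgb4, read 7.24 in each vehicle array and 7.36 and 7.04 with ormeloxifene (probe set 17762893), on either side of the vehicle arrays, and differed by -0.04 ± 0.22 (-0.55 to 0.47). Itgb4 did not follow its partner: it read 7.44 and 7.53 with vehicle and 7.97 and 7.65 with ormeloxifene (probe set 17652846). Its groups did not overlap, and the difference of 0.32 ± 0.22 (-0.19 to 0.83) was 0.53 within number 1 and 0.12 within number 2. Whether Itgb4 differed from Itga6 in its response was not tested.

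The leukocyte subunits lay higher with ormeloxifene in 6 of 6 genes measured, by small amounts from 0.03 to 0.18 at a median of 0.10. Of these, 0 were at an unadjusted p under 0.05 by limma. Only 3 of the 6 kept their sign within both replicate numbers. In 5 of the 6 the gap between the numbers, averaged over the groups, was larger than the difference between the groups. Itgb2, the beta subunit shared by the leukocyte receptors, read 6.91 and 6.88 with vehicle and 7.05 and 7.10 with ormeloxifene, without overlap, at 0.18 ± 0.20 (-0.29 to 0.65). Its alpha partners overlapped between the groups: Itgam of macrophages and granulocytes differed by 0.18 ± 0.28, Itgax of dendritic cells by 0.11 ± 0.23, Itgal of lymphocytes by 0.06 ± 0.23 and Itgad by 0.03 ± 0.21. The difference of Itgam was 0.58 within number 1 and -0.22 within number 2, and its vehicle arrays, at 5.10 and 5.88, enclosed both ormeloxifene arrays. Itgb7, which pairs with Itga4 on lymphocytes that home to mucosa, differed by 0.10 ± 0.21. Itga4, the subunit that binds Vcam1 and fibronectin, read 5.47 and 5.94 with vehicle and 5.92 and 6.06 with ormeloxifene (probe set 17763219). Vehicle replicate 1 stood apart from the other 3 arrays, and the difference of 0.28 ± 0.24 (-0.27 to 0.84) was 0.05 without it. The related Itga9, a receptor subunit for tenascin and osteopontin, differed by -0.17 ± 0.21.

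The difference kept its sign within both replicate numbers in 23 of the 37 members (62.2%) and in 52.3% of all genes tested. Within number 1, 26 members lay higher, at a median of 0.14, and within number 2, 20 did, at a median of 0.01. The gap between the numbers, averaged over the groups, was larger than the difference between the groups in 22 of the 37 members (59.5%), against 63.9% of all genes. The arrays of a group lay a median of 0.22 apart with vehicle and 0.17 apart with ormeloxifene in these genes. Over all genes these gaps were 0.27 and 0.23. The median absolute difference between the groups was 0.15, against 0.13 over all genes. A gap between 2 single arrays varies more than a difference between 2 means, so the gaps and the difference are not directly comparable.

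**Figure D3:**
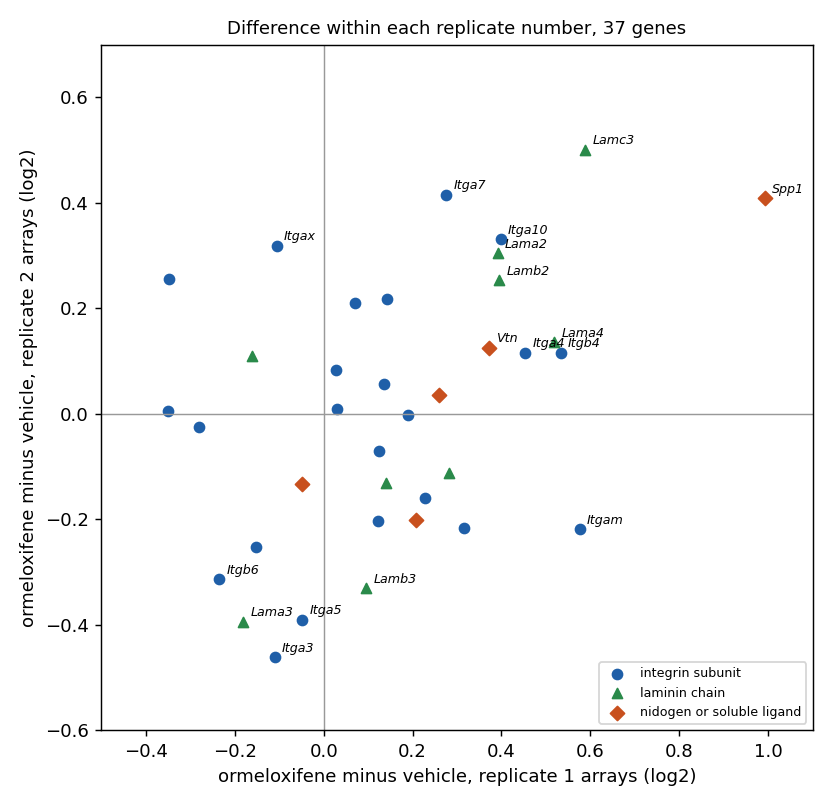
Difference between ormeloxifene and vehicle on the log2 scale within the replicate 1 arrays (x axis) and within the replicate 2 arrays (y axis), 1 point per gene: circles are integrin subunits, triangles laminin chains, diamonds nidogens and soluble ligands. Spp1 and Lamc3 lie farthest to the upper right, at 0.99 and 0.41 and at 0.59 and 0.50; the upper left and lower right areas hold the 14 genes whose sign differed between the numbers.

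The proteins that activate integrins and join them to actin, such as talins, kindlins and vinculin, were measured for 26 genes. Of these, 18 lay higher and 8 lower, with 0 at an unadjusted p under 0.05 by limma and a median of 0.07, and the groups did not overlap in 1 of them, the talin Tln1, or 3.85% against 25.7% of all genes. The intervals of single genes in this list all covered 0, at a median width of 1.04. The lowest bound was -0.84, for Fermt1, and the highest 1.00, for Fermt2. The smallest p values were those of Sharpin, which restrains integrin activation, at 0.28 ± 0.27, the focal adhesion protein Tns1 at 0.28 ± 0.28 and the actin crosslinker Flna at 0.26 ± 0.27. Within number 1 the median of this list was 0.16 and within number 2 it was -0.05. Of 16 other matrix ligands and counter-receptors, 10 lay higher and 6 lower, at a median of 0.02. The groups did not overlap in 5 of the 16, or 31.2%. At an unadjusted p under 0.05 by limma there were 0 of the 16, against 2.20% of all genes. With the block there was 1, Ccn2 (unadjusted p of 0.0405 and adjusted p of 0.706 by limma), against 6.76% of all genes. The matricellular protein Ccn2 read 7.21 and 7.33 with vehicle and 6.63 and 7.06 with ormeloxifene, at -0.42 ± 0.23, the RGD protein Edil3 differed by 0.31 ± 0.20, and the leukocyte counter-receptor Vcam1 by -0.32 ± 0.23. Of 17 other basement membrane components and laminin receptors, 10 lay higher and 7 lower, at a median of 0.03, with 0 at an unadjusted p under 0.05 by limma. The groups did not overlap in 5 of the 17, or 29.4%. Sgcb, a sarcoglycan of the muscle laminin receptor complex, differed by 0.34 ± 0.21, Frem1, a matrix protein under epithelia, by 0.31 ± 0.22, and the collagen IV chain Col4a2 by -0.26 ± 0.20.

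Cell type markers were read beside these genes. Of the 7 smooth muscle markers measured, 7 lay higher with ormeloxifene, at a median of 0.34, with Synpo2 at 0.45 ± 0.22 and Lmod1 at 0.38 ± 0.26; 0 were at an unadjusted p under 0.05 by limma, and 1, Synpo2, with the block. Their summed signal, on the log2 scale, was 13.51 and 13.36 with vehicle and 13.79 and 13.64 with ormeloxifene. Of the integrins and laminins described above as muscle genes, Itga7 and Lama2 differed by 0.35 each, Lamb2 by 0.32, Lama4 by 0.33 and Itga1 by -0.05; the part of smooth muscle content in this was not tested. Without vehicle replicate 2 the median of the muscle markers was 0.13. Of the 9 epithelial markers, 3 lay higher and 6 lower, at a median of -0.20, with Krt7 at -0.45 ± 0.32 and Krt18 at -0.40 ± 0.31 (-0.86 within number 1 and 0.05 within number 2), and a summed signal of 10.64 and 10.73 with vehicle and 10.64 and 10.70 with ormeloxifene. With an array left out the median ran from -0.14 to 0.0079, turning sign without ormeloxifene replicate 2. Within number 1 the median of the epithelial markers was -0.04 and within number 2 it was -0.03. Of the 9 epithelial markers, 3 kept their sign within both numbers, or 33.3%, against 52.3% of all genes. The share was 100% for smooth muscle, 80% for leukocyte and 75% for stromal markers. It was 62.5% for granulocyte, 50% for endothelial and 25% for platelet markers, and all these lists are short. Of the genes described above as epithelial, Lama3, Lamb3, Itga2, Itga3 and Itgb6 lay lower and Itgb4 and Lama5 higher; the part of epithelial content was not tested.

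Of the 15 leukocyte markers, 10 lay higher and 5 lower, at a median of 0.11 against 0.10 for the leukocyte integrin subunits. Cd8a differed by 0.49 ± 0.24 and Cd79a by -0.34 ± 0.40, and the summed signal was 12.01 and 12.10 with vehicle and 12.12 and 12.31 with ormeloxifene. Of the 8 granulocyte markers, 4 lay higher and 4 lower, with a median of 0.10 that turned to -0.19 without dim genes and to -0.074 without ormeloxifene replicate 1, and a summed signal of 8.38 and 8.53 with vehicle and 8.50 and 8.39 with ormeloxifene. Mpo was at 0.66 ± 0.37, with 1.42 within number 1 and -0.11 within number 2, vehicle replicate 1 standing apart at 3.85. S100a9 at -0.57 ± 0.23 was the marker with an unadjusted p under 0.05 (0.0423 by limma, adjusted p = 1.00); this call was lost on the values as deposited, with centred arrays and with all probe sets tested. With the block, the markers Cd8a (0.0349), Krt7 (0.0345), Hoxa10 (0.0372), Synpo2 (0.0297) and S100a9 (0.00964) were under 0.05 before adjustment by limma. These were 1 of 15 leukocyte, 1 of 9 epithelial, 1 of 8 stromal, 1 of 7 smooth muscle and 1 of 8 granulocyte markers, against 6.76% of all genes. Their adjusted p with the block ran from 0.569 to 0.701 by limma. The part of leukocyte content in the values of the leukocyte subunits was not tested. Of 4 platelet markers, 3 lay higher, at a median of 0.13, with Gp1ba at 0.19 ± 0.21 and Ppbp at 0.15 ± 0.25. Of 8 stromal markers, 5 lay higher and 3 lower, at a median of 0.08, with Hoxa10 at 0.41 ± 0.31 and Hand2 at -0.31 ± 0.21, and of 6 endothelial markers 5 lay higher and 1 lower, at a median of 0.18, with Tek at 0.27 ± 0.26 and Cdh5 at 0.25 ± 0.21. The table holds no detection calls, so no marker can be called absent.

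**Figure D4:**
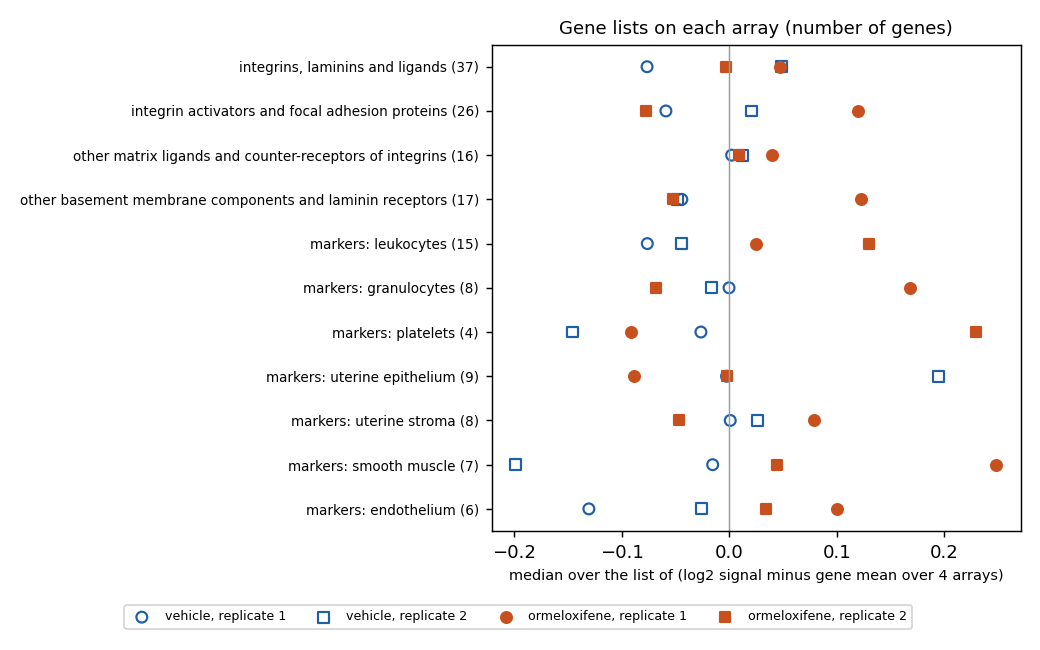
Median over each gene list of the log2 signal minus the gene mean over the 4 arrays (x axis), per array, with the number of genes measured in parentheses (y axis). Open blue marks are vehicle and filled orange marks ormeloxifene, circles replicate 1 and squares replicate 2; for the 37 genes the colours are mixed, and for the smooth muscle, leukocyte and endothelial markers both orange marks lie to the right of both blue marks.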

How the data were processed

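The deposited table holds log2 signals of 36685 probe sets on 4 arrays, which the authors made with Affymetrix Expression Console, per the submitters' processing notes; no source used here gives its version, summary method or genome build. Their log2 scale was taken from the range of the values, 0.92 to 13.59. Column medians ran from 5.67 to 5.93, so arrays were quantile normalized. By the platform annotation 18511 probe sets had 1 gene symbol, 575 had several and 17599 had none; names were updated to GRCr8 by gene number for 18394. The brightest probe set per gene left 18166 genes. Groups were compared with limma 3.58.1 in R 4.3.3 (lmFit and eBayes, 2-sided, threshold 0.05, Benjamini-Hochberg over all genes), with 2 residual degrees of freedom, 7.55 after moderation. The fit was run on simulated data with independent arrays and the same SD for every gene. Arrays of the same replicate number were alike here, so that run does not show how the fit behaves on these data. P-values measure spread between the labelled biological replicates. Replicate numbers are shared by the groups in the labels, which do not say what the numbers stand for. Arrays of the same number shared 488 and 551 exactly equal deposited values, against 0 in every other pair. The origin of this likeness was not tested, so the block is an alternative. The block fit had 1 residual degree of freedom, 8.15 after moderation, so its standard errors rest mostly on the other genes.

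Values on every array are given for genes known from receptivity work or as matrix partners and for the 8 further members of smallest p; from each partner list the 3 of smallest p are named, from each marker list the 2 of largest difference. Further array values were added where arrays disagreed, after they were seen. Members, lists and tests were chosen with earlier results of these data known. Alternatives were the values as deposited, median centring, the replicate block on each scale, a filter on dim genes, all probe sets, the mean of probe sets, moderation with trend and robust, and leaving out each array.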

Additional observations from a re-analysis of the deposited data

How the results depend on the processing

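Under the 12 alternatives, 0 of the 37 genes passed the adjusted threshold by limma, and 19 of the 37 kept the sign of their difference, Lamc3 (0.46 to 0.63) and Spp1 (0.14 to 1.26) among them. The number of members at an unadjusted p under 0.05 was 0 as deposited, 0 with centred arrays and 0 with all probe sets. It was 2, both higher, under the replicate block on either scale, quantile normalized or deposited. Over all 18166 genes, the deposited values gave 142 such calls unblocked and 1163 blocked. Normalized values gave 399 unblocked and 1228 blocked, centred arrays gave 295, and all 36685 probe sets gave 888. Calls thus rose under the block over all genes too, so the rise to 2 is not particular to the members. Genes past the adjusted threshold in the whole table, 0 in the fit as reported, numbered 3 higher and 2 lower with the replicate block, 40 and 44 with the replicate block on the values as deposited, 3 and 1 without dim genes, 3 and 1 with trend and robust moderation, 1 and 0 with centred arrays, 1 and 0 with the mean of probe sets, and from 0 to 2 higher and 0 to 1 lower with an array left out. With 2 pairs of arrays, the block was kept as an alternative, since the labels do not say what the replicate numbers stand for.

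The sign of the difference turned for Fn1 (-0.043 as deposited, with and without the block, and -0.063 centred), Itgb1 (-0.024 and -0.045) and Lama1 (0.0039 as deposited, with and without the block). With an array left out, the differences that turned ran from -0.17 to 0.17 for Fn1, -0.052 to 0.091 for Itgb1, -0.22 to 0.17 for Lama1, -0.11 to 0.22 for Itgal, -0.0013 to 0.19 for Itgb7, -0.0073 to 0.66 for Lama4, -0.031 to 0.20 for Lama5, -0.14 to 0.15 for Lamc1, -0.20 to 0.12 for Itga6, -0.39 to 0.48 for Itga8, -0.078 to 0.36 for Itgb5, -0.34 to 0.25 for Itga1, -0.38 to 0.080 for Itga2, -0.15 to 0.22 for Itga2b, -0.056 to 0.11 for Itgad, -0.21 to 0.56 for Itgam, -0.079 to 0.27 for Itgb8 and -0.11 to 0.33 for Itgax. Medians with an array left out ran from 0.013 to 0.11 for the 37 genes, -0.21 to 0.22 for RGD-binding, -0.26 to 0.17 for collagen-binding and -0.20 to 0.12 for laminin-binding alpha subunits, 0.057 to 0.17 for leukocyte subunits, -0.052 to 0.27 for other beta subunits, -0.031 to 0.20 for laminin alpha and 0.043 to 0.25 for laminin beta and gamma chains. They ran from -0.045 to 0.15 for focal adhesion proteins, -0.014 to 0.025 for other ligands (-0.0010 with centred arrays), -0.017 to 0.15 for other basement membrane genes, 0.10 to 0.21 for leukocyte, -0.074 to 0.22 for granulocyte (-0.19 without dim genes), -0.14 to 0.0079 for epithelial, -0.020 to 0.12 for stromal, 0.13 to 0.41 for smooth muscle and 0.078 to 0.22 for endothelial markers. Where a group is left with 1 array, that array is taken to vary like the other group. The causes of these changes were not tested, and the number of arrays limits all of them.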
